A study of Mus musculus with 27 samples.

Results

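In the mouse uterus, 15 of 22083 genes were low 2 h after a dose of estradiol and high at 24 h, relative to vehicle, in every strain studied. They were chosen from the measurements themselves. A gene was kept when its mean at 2 h was at least 1 log2 unit below vehicle and its mean at 24 h at least 1 log2 unit above vehicle, in each of 3 strains. The 15 are Rnf186, Ifne, Trpv6, LOC244911, Ankrd22, LOC628856, Arhgef38, Pramel13, Slc40a1, Rtl3, 5031425E22Rik, Fermt1, AK079795, Macc1 and Grb7. The early threshold alone was met in all 3 strains by 1583 genes and the late threshold alone by 1138. Both were met in F1 by 64 genes, in C3H by 64 and in B6 by 53, with 76 genes meeting both in exactly 1 strain and 30 in exactly 2.

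Whole uteri came from ovariectomised females of (B6 × C3H)F1 hybrids, C3H and C57BL/6 (B6), aged 8 weeks and rested for 1 to 2 weeks after surgery. Each received an intraperitoneal injection of 17β-estradiol (E2, an estrogen made mainly by the ovary), 40.0 µg per kg, in 0.1 ml saline with 0.25% ethanol, or that vehicle alone. Tissue was taken 2 h or 24 h after E2, and the labels give no time for vehicle. The 9 groups (3 strains, each with vehicle, E2 2 h and E2 24 h) had 3 samples each, giving 27 one-colour Agilent arrays. All animals lacked ovaries, so vehicle is a state without ovarian hormone. The labels name 3 animals per group but do not say which array came from which, and p-values therefore measure only how far these samples spread, which may be technical.

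Levels are log2 processed spot intensity minus the 75th percentile of the same array, so a level of 0 is that percentile, which lay between 1210 and 1579 intensity units. Between 72.4% and 79.4% of probes on an array were well above background by the scanner software's flag, and the number of arrays limits the precision. Levels of different probes are not set against each other. The arrays lay on 7 slides of 4. No slide held both vehicle and E2 arrays of C3H, or vehicle and 24 h arrays of the same strain. Slide and treatment therefore cannot be told apart for C3H at either time or for F1 at 24 h. For B6 at 24 h they can be parted only through its 2 h arrays, which shared slides with both vehicle and 24 h arrays.

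Estradiol acts on the uterus through estrogen receptor alpha, a nuclear receptor that binds DNA at estrogen response elements or is recruited through other factors. In rodents an early wave of transcription, with water uptake, is followed by a late phase in which the luminal epithelium proliferates and takes on secretory functions. The 15 genes include an epithelial calcium channel (Trpv6), the iron exporter ferroportin (Slc40a1), a type I interferon made by the reproductive tract epithelium (Ifne), an E3 ubiquitin ligase (Rnf186), and proteins of adhesion and receptor signalling (Fermt1, Grb7, Macc1, Arhgef38).

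A RefSeq promoter window (GRCm38.p6, 250 bases before to 50 after the gene's start, 5′ to 3′ on the gene's strand) was matched for 10 of the 15. The 4 below come first among those 10 when genes are ordered by their smallest 24 h minus 2 h difference over the strains, and are shown for that reason. LOC244911, also early in that order, had no window. Capitals mark GGTCA (one arm of an estrogen response element), the AP-1 motif TGANTCA and the TATA-box motif TATAAA, on either strand. They lie at chr4:138966869-138967168 on the plus strand (Rnf186), and on the minus strand at chr4:88880152-88880451 (Ifne), chr6:41636356-41636655 (Trpv6) and chr19:34165992-34166291 (Ankrd22).
Rnf186: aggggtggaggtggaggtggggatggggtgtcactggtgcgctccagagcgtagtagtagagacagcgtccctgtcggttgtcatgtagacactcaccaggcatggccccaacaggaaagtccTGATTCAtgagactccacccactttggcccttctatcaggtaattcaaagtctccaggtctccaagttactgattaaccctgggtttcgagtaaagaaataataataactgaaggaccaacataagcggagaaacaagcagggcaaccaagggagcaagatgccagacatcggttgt
Ifne: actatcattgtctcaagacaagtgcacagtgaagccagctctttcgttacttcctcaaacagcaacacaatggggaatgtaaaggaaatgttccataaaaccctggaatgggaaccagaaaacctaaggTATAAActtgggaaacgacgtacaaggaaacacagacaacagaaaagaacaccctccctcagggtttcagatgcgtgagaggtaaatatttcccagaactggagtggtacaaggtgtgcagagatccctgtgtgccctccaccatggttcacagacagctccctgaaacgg
Trpv6: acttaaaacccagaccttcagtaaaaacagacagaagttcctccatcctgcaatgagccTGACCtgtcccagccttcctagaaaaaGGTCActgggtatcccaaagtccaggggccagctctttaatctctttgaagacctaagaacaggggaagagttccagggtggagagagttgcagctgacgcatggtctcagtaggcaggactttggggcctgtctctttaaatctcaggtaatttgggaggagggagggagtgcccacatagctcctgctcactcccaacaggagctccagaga
Ankrd22: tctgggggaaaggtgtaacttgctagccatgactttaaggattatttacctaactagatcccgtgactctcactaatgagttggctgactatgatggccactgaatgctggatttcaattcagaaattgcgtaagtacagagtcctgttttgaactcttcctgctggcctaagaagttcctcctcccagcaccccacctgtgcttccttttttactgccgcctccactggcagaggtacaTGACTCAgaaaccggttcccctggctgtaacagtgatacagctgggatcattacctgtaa

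Rnf186 and Ankrd22 each held 1 TGANTCA match, Ifne held 1 TATAAA match, and Trpv6 held 2 GGTCA matches. Over the 10 windows, GGTCA was present in 4, against 40.2% of 27025 promoter windows of the same length, 1 per gene. TGANTCA was present in 3 (Rnf186, Ankrd22 and Macc1), against 7.93% of all windows, and TATAAA in 3 (Ifne, Arhgef38 and Macc1), against 14.2%. TTTGAA (CHR) was present in 4, against 18.1%, and TTCNNNGAA (STAT) in 2, against 8.47%. CCAAT (NF-Y) was present in 3, against 37.9%, GGGCGG (SP1) in 2, against 35.9%, and CANNTG (E-box) in 7, against 72.1%. The full element, GGTCA then TGACC 3 bases apart, was found in 0 of the 10 windows and in 0.0666% of all windows. Likewise TTTGGCGC and TTTCCCGC (E2F) and GAAA then GAAA 2 bases apart (interferon response) were found in 0 of the 10, against 0.537%, 1.11% and 3.49%. Letters in a short window describe that window only.

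Rnf186, a RING-type ubiquitin ligase of epithelia, came first by the smallest 24 h minus 2 h difference over the strains. That difference ran from 6.48 to 7.10 log2 units over the strains, against 6.18 to 6.56 for Ifne and 5.63 to 6.54 for Trpv6. In F1 the level of Rnf186 was -3.13, -3.40 and -3.58 with vehicle, -6.58, -6.67 and -7.76 at 2 h, and 0.05, 0.19 and 0.06 at 24 h. In C3H it was -3.31, -3.48 and -3.67 with vehicle, -6.91, -6.56 and -6.47 at 2 h, and -0.31, 0.08 and -0.15 at 24 h. In B6 it was -3.39, -3.58 and -3.69 with vehicle, -6.29, -6.67 and -6.23 at 2 h, and 0.43, 0.06 and -0.23 at 24 h. The 3 times did not overlap in any strain. The fall at 2 h came to 12.4-fold in F1, 8.94-fold in C3H and 7.15-fold in B6, and the rise at 24 h to 11.1-fold, 10.3-fold and 12.5-fold in the same strains. At 2 h it was well above background on 1 of 3 arrays in F1, 2 of 3 in C3H and 3 of 3 in B6. With normexp background correction, a model-based alternative chosen after seeing the data, the change at 2 h was smaller, -1.54 log2 units in F1, -1.38 in C3H and -1.28 in B6. With normexp Trpv6 changed more than Rnf186 at both times in every strain. It changed by -1.89, -1.85 and -1.80 at 2 h and by 3.64, 4.02 and 3.29 at 24 h in F1, C3H and B6. Rnf186 rose by 2.97, 2.81 and 3.07 at 24 h, so its first place holds for the processed intensity only.

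**Figure D1:**
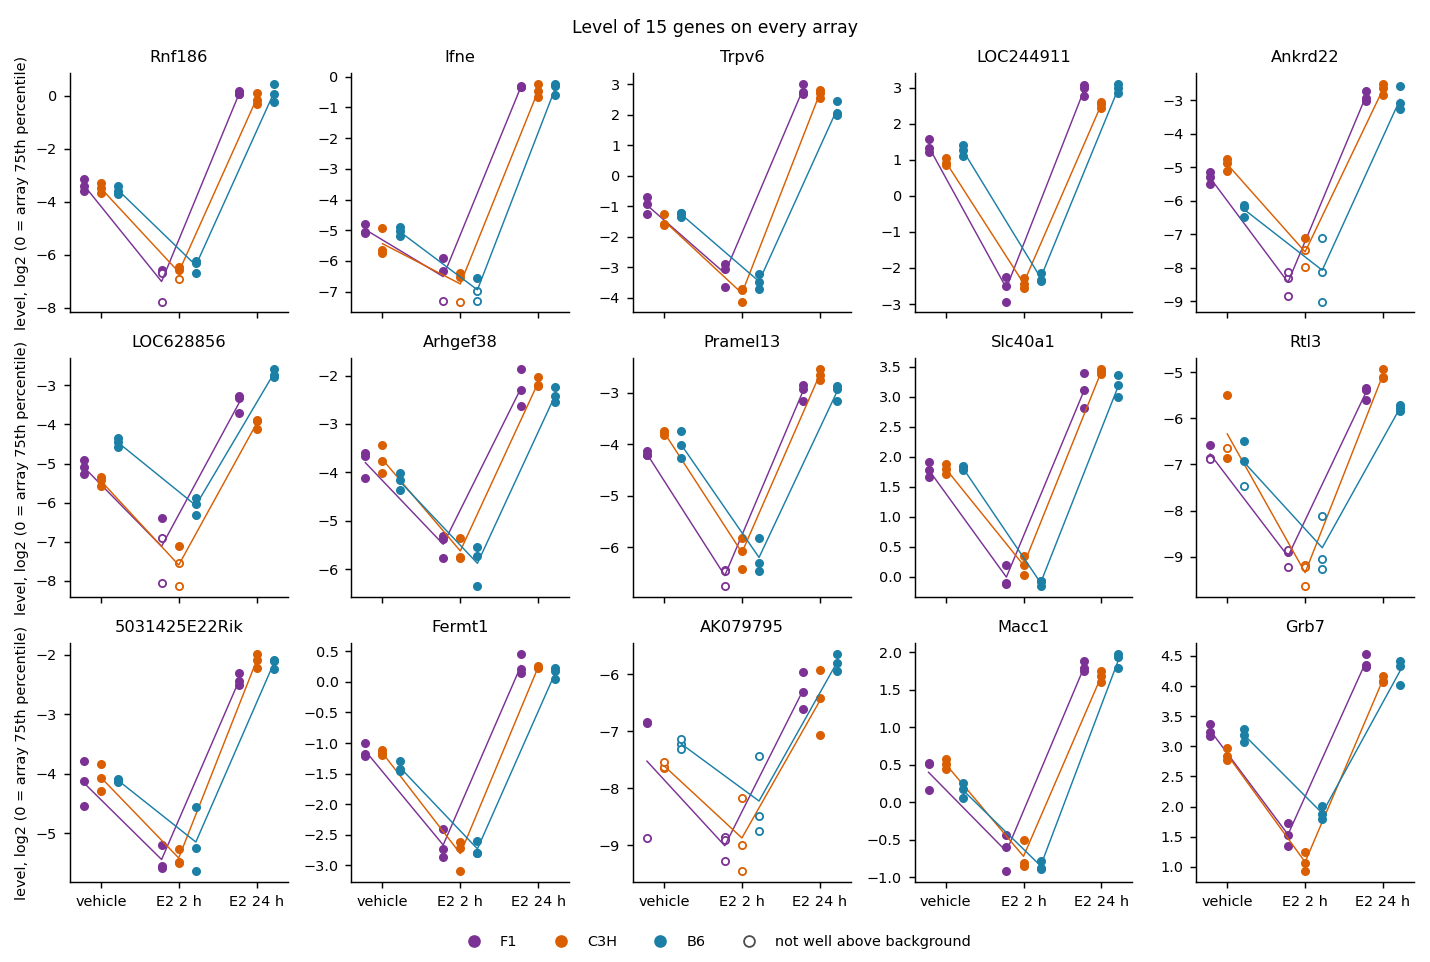
Level of each of the 15 genes on all 27 arrays (log2, 0 is the array's 75th percentile) by treatment, with lines through group means and hollow points where the probe was not well above background. Within each strain the 2 h points lie below vehicle and the 24 h points above it in every panel, except for AK079795, where the 2 h and vehicle points of 1 strain overlap. The rule that chose the genes fixed the order of the group means and a least distance of 1 log2 unit between them. The separation of the points is therefore no separate result, and the share of all genes with such separation was not counted.

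Ifne, interferon epsilon, is an unusual type I interferon that the epithelium of the female reproductive tract makes without infection. Its level in F1 was -5.08, -4.80 and -5.06 with vehicle, -6.33, -5.90 and -7.29 at 2 h, and -0.33, -0.35 and -0.29 at 24 h. Its level in C3H was -4.92, -5.75 and -5.64 with vehicle, -7.32, -6.39 and -6.53 at 2 h, and -0.66, -0.25 and -0.48 at 24 h. Its level in B6 was -4.91, -5.18 and -5.04 with vehicle, -6.97, -7.29 and -6.56 at 2 h, and -0.24, -0.59 and -0.31 at 24 h. On the processed intensity the late rise was the largest among the 15 genes, at 25.2-fold in F1, 31.4-fold in C3H and 25.3-fold in B6. The early fall was 2.88-fold, 2.48-fold and 3.72-fold in the same strains. At 2 h the probe was well above background on 5 of 9 arrays. With normexp the changes were -0.56, -0.45 and -0.58 log2 units at 2 h, and 3.40, 3.43 and 3.34 at 24 h, in F1, C3H and B6. Trpv6 rose by 3.64, 4.02 and 3.29 with normexp, more than Ifne in F1 and C3H and slightly less in B6. Ifne acts through the type I interferon receptor, but a link between Ifne and interferon-induced genes in these samples was not tested. Of 22 measured interferon-induced genes on the list used here, 18 in F1, 14 in C3H and 7 in B6 were called higher at 24 h (limma, adjusted p under 0.05), with 1 lower in each. Of all genes tested, 31.4% in F1, 26.9% in C3H and 30.6% in B6 were called higher, and 37.1%, 40.4% and 37.4% lower. At 2 h, 6, 7 and 13 of the 22 were called lower in F1, C3H and B6, and 2, 1 and 1 higher. Of all genes, 36.9%, 37% and 33.9% were called lower at 2 h, and 22.8%, 23.9% and 22.7% higher. One B6 vehicle array stood apart on this list, with a list mean of 1.54 against 0.05 and -0.01 on the other B6 vehicle arrays. In a refit without it 17 of the 22 were higher in B6 at 24 h, and at 2 h 7 were lower and 4 higher. The shares of all genes given above are from the fit with every array, and those of the refit were not counted. On that array the 15 genes lay on average 0.01 log2 units below their group means, with 8 of 15 above.

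Trpv6, the apical calcium channel of absorptive epithelia, was well above background on all 27 arrays. In F1 its level was -0.93, -0.70 and -1.25 with vehicle, -3.04, -2.89 and -3.65 at 2 h, and 2.67, 3.01 and 2.74 at 24 h. In C3H it was -1.24, -1.58 and -1.61 with vehicle, -3.70, -3.73 and -4.12 at 2 h, and 2.54, 2.82 and 2.72 at 24 h. In B6 it was -1.22, -1.34 and -1.23 with vehicle, -3.21, -3.71 and -3.47 at 2 h, and 2.45, 2.05 and 2.00 at 24 h. The groups were fully apart in each strain. The fall was 4.70-fold in F1, 5.18-fold in C3H and 4.60-fold in B6, and the rise 13.6-fold, 18-fold and 10.8-fold.

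Slc40a1, ferroportin, is the only known cellular iron exporter in mammals. With vehicle it stood at 1.90, 1.78 and 1.67 in F1, 1.88, 1.80 and 1.72 in C3H and 1.78, 1.85 and 1.82 in B6. At 2 h its level was -0.11, 0.19 and -0.10 in F1, 0.03, 0.35 and 0.20 in C3H and -0.16, -0.08 and -0.06 in B6. At 24 h it reached 2.82, 3.39 and 3.12 in F1, 3.37, 3.43 and 3.46 in C3H and 3.35, 3.00 and 3.20 in B6. Its vehicle levels overlapped among the 3 strains, and the 95% interval of the C3H minus B6 difference ran from -0.26 to 0.23. The early fall was 3.46-fold in F1, 3.04-fold in C3H and 3.77-fold in B6, and the late rise 2.50-fold, 3.07-fold and 2.58-fold.

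Slc40a1 was also 1 of the 18 measured genes on a list of epithelial transporters and channels. On that list 13 were called higher at 24 h in F1, 11 in C3H and 14 in B6, where 31.4%, 26.9% and 30.6% of all genes were. At 2 h, 5, 7 and 6 were called lower, where 36.9%, 37% and 33.9% of all genes were. The genes named here from this list and from the epithelial lists further on were chosen after their values were seen. Slc9a2, a sodium-hydrogen exchanger, was 4.59, 4.78 and 4.92 log2 units higher at 2 h and changed by -1.65, -1.43 and -1.71 at 24 h in F1, C3H and B6 (largest limma adjusted p 8.8e-08). Cftr, the chloride channel, changed by -0.51, -0.89 and -0.68 at 2 h and by 2.37, 2.10 and 2.08 at 24 h (largest adjusted p 0.0056).

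Of the adhesion and signalling genes, Grb7, an adaptor that binds activated receptor tyrosine kinases, stood at 3.24, 3.37 and 3.18 with vehicle in F1, 1.53, 1.72 and 1.35 at 2 h, and 4.32, 4.53 and 4.35 at 24 h. In C3H it stood at 2.97, 2.77 and 2.84 with vehicle, 1.06, 1.25 and 0.92 at 2 h, and 4.06, 4.09 and 4.16 at 24 h. In B6 it stood at 3.29, 3.07 and 3.18 with vehicle, 1.80, 1.87 and 2.00 at 2 h, and 4.33, 4.02 and 4.41 at 24 h. Its fall was larger than its rise in every strain, 3.32-fold against 2.20-fold in F1, 3.44-fold against 2.37-fold in C3H and 2.45-fold against 2.10-fold in B6.

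Fermt1 (kindlin-1, which helps activate integrins in epithelial cells) changed by -1.54, -1.65 and -1.34 log2 units at 2 h and by 1.39, 1.40 and 1.54 at 24 h in F1, C3H and B6. A second Fermt1 probe, well above background on all 27 arrays, was also lower at 2 h and higher at 24 h in the means of all 3 strains, but its change at 24 h was 0.51, 0.58 and 0.66, below the threshold. Macc1, a regulator of the receptor gene Met, changed by -1.05, -1.23 and -1.01 at 2 h and by 1.40, 1.17 and 1.73 at 24 h. Arhgef38, a guanine nucleotide exchange factor, changed by -1.69, -1.89 and -1.69 at 2 h and by 1.54, 1.59 and 1.78 at 24 h. Another Arhgef38 probe, above background on 22 arrays, changed by -2.45, -1.87 and -1.80 at 2 h and by 0.98, 0.88 and 1.13 at 24 h, short of the threshold in F1 and C3H. With the mean of a gene's probes, Arhgef38 changed by -1.02, -1.02 and -0.85 at 2 h. The remaining Arhgef38 probes and the second Ankrd22 probe were above background on at most 8 arrays.

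Ankrd22, an ankyrin-repeat protein, had its vehicle level above background on all 9 arrays but its 2 h level on 1 of 9. In F1 it was -5.15, -5.30 and -5.51 with vehicle and -3.04, -2.71 and -2.92 at 24 h. In C3H it was -4.76, -5.10 and -4.88 with vehicle and -2.52, -2.86 and -2.65 at 24 h. In B6 it was -6.49, -6.20 and -6.13 with vehicle and -2.56, -3.09 and -3.28 at 24 h. The 24 h levels of the strains overlapped. At 2 h no array of F1 or B6 was well above background, so the fall there is a bound that holds for the processed intensity only. It was at least 2.70-fold in F1 and at least 1.56-fold in B6. For this the vehicle mean was set against the lowest well-measured signal of each 2 h array or the probe's own, whichever was higher. With normexp the fall was smaller than these bounds, 1.61-fold in F1 and 1.26-fold in B6. In C3H 1 of 3 arrays was well above background at 2 h.

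LOC244911, known here only by the name in the array files (probe at chr9:67861494-67861553, mm7, minus strand), had the largest early fall. It stood at 1.32, 1.59 and 1.21 with vehicle in F1, -2.49, -2.25 and -2.93 at 2 h, and 3.01, 3.08 and 2.78 at 24 h. In C3H it stood at 1.06, 0.86 and 0.92 with vehicle, -2.44, -2.28 and -2.55 at 2 h, and 2.45, 2.56 and 2.61 at 24 h. In B6 it stood at 1.41, 1.11 and 1.29 with vehicle, -2.36, -2.32 and -2.13 at 2 h, and 3.01, 2.86 and 3.11 at 24 h. The fall was 15.3-fold in F1, 10.4-fold in C3H and 11.6-fold in B6, and the rise 2.99-fold, 3.01-fold and 3.30-fold.

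The other genes were measured with less certainty at 2 h, apart from 5031425E22Rik. Pramel13, of the PRAME-like family, changed by -2.37, -2.34 and -2.20 at 2 h and by 1.20, 1.13 and 1.03 at 24 h in F1, C3H and B6. It was well above background on 7 of 9 arrays at 2 h, 1 of 3 in F1. LOC628856, above background on 5 of 9 (probe at chr8:126043263-126043322, mm7, minus strand) changed by -2.02, -2.15 and -1.61 and then by 1.66, 1.47 and 1.76. The Riken clone 5031425E22Rik changed by -1.29, -1.35 and -1.04 and then by 1.73, 1.96 and 1.97. Rtl3, a gene derived from a retrotransposon Gag sequence, and AK079795 (probe at chr16:93970949-93971008, mm7, plus strand) passed the brightness filter only through the 24 h groups, so their 24 h level had to be the measurable one. Rtl3 was not well above background on any of the 9 arrays at 2 h, and no fold can be given for F1 or B6. In C3H, where 2 of 3 vehicle arrays were well above background, its fall was at least 1.80-fold on the processed intensity, but 1.44-fold with normexp. AK079795 was well above background on 0 of 9 arrays at 2 h and 2 of 9 with vehicle. On the processed intensity its rise is bounded at 2.37-fold or more in B6 and 1.38-fold or more in C3H. With normexp its rise was smaller than these bounds, 1.20-fold in B6 and 1.14-fold in C3H.

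Over the 15 genes, the median change at 2 h was -1.79 in F1, -1.89 in C3H and -1.81 in B6, and at 24 h 1.54, 1.59 and 1.73. The limma SE of a gene's change was 0.11 (Grb7) to 0.43 (AK079795), with 0.23 for Rnf186, 0.29 for Ifne, 0.19 for Trpv6, 0.14 for LOC244911 and 0.12 for Slc40a1. Median changes over all genes were -0.12, -0.13 and -0.09 at 2 h and -0.04, -0.16 and -0.06 at 24 h. The rule fixed the sign and least size of these changes, so no test was made of them. Of all genes, 11.4% in F1, 11% in C3H and 9.35% in B6 lay at least 1 log2 unit below vehicle at 2 h, and 9.57%, 6.62% and 9.69% at least 1 above it at 24 h. In the group means the fall was larger than the rise in all strains for LOC244911, Pramel13 and Grb7, and the rise larger than the fall for Ifne, Trpv6 and 5031425E22Rik. The sizes of fall and rise are not compared for Rtl3, Ankrd22 and AK079795, which had groups below background. With normexp the changes at 2 h moved by over 1.5 times, all towards 0, in at least 1 strain for Rnf186, Ifne, Ankrd22, LOC628856, Arhgef38, Pramel13, Rtl3, 5031425E22Rik and AK079795, and 6 of the 15 genes still met the rule. The members nearest to the threshold were Pramel13, whose least change was 1.03 (B6, 24 h), Macc1 with 1.01 (B6, 2 h) and AK079795 with 1.00 (B6, 2 h). Just outside lay NAP108451-1 at 0.99 (C3H, 24 h), Dlx6os1 at 0.98 (B6, 2 h) and Cdc42ep5 at 0.97 (F1, 24 h).

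**Figure D2:**
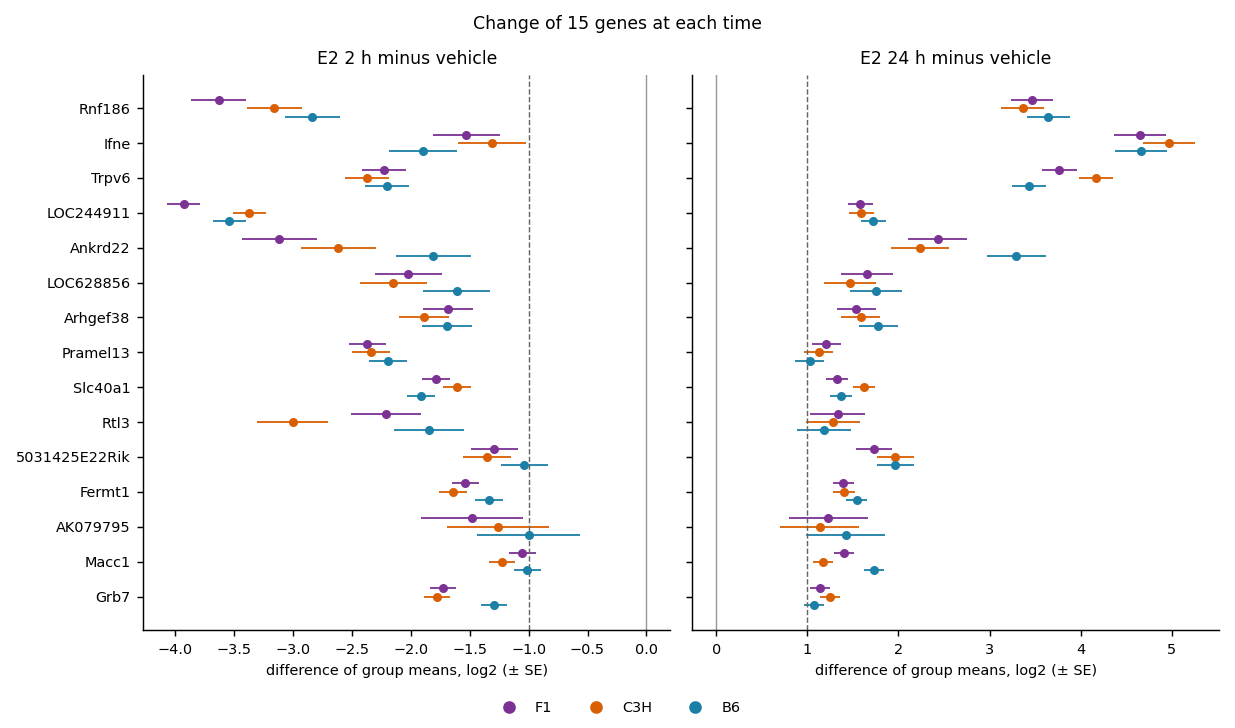
Difference between E2 and vehicle group means (log2, ± limma SE, 3 arrays per group) at 2 h and 24 h for the 15 genes in F1, C3H and B6, with dashed lines at the threshold of 1. The lowest change at 2 h is -3.93 (LOC244911 in F1) and the highest at 24 h is 4.97 (Ifne in C3H).

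Only 2 slides held both vehicle and 2 h arrays. These arrays also entered the rule, so the values are a description. On the B6 slide (1 E2 array, 3 vehicle arrays) the 15 genes were lower at 2 h by 0.21 to 3.63 log2 units, 13 of them by at least 1, as were 8.76% of all genes on that slide. On the F1 slide (3 E2 arrays, 1 vehicle array) they were lower by 0.13 to 3.77, 12 of them by at least 1, as were 11.9% of all genes there. AK079795 was the weakest on both, and 5031425E22Rik was 0.45 lower on the B6 slide and 0.90 lower on the F1 slide.

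The rule set vehicle against E2 within each strain and put no bound on how vehicle levels compared between strains. These levels were tested with limma's moderated F over the 3 strains. The same vehicle arrays entered the rule that chose the genes, so the p-values are not free of that choice. In vehicle, 3 of the 15 differed (adjusted p under 0.05), where 26.8% of all genes did, and 6 had an unadjusted p under 0.05. Ankrd22 averaged -5.32 ± 0.18 in F1, -4.91 ± 0.18 in C3H and -6.27 ± 0.19 in B6 (mean ± SD, n = 3 arrays each; limma adjusted p 0.00847). C3H was 2.56-fold above B6 (limma adjusted p 0.00333), whereas F1 minus B6 was 0.95 log2 units with a 95% interval of 0.28 to 1.62 (limma adjusted p 0.0583). LOC628856 ran the other way, with -5.09 ± 0.19 in F1, -5.44 ± 0.11 in C3H and -4.46 ± 0.11 in B6 (limma adjusted p 0.0355), and C3H was 0.98 log2 units below B6 (limma adjusted p 0.0143). Grb7 was lowest in C3H, with 3.26 ± 0.10 in F1, 2.86 ± 0.10 in C3H and 3.18 ± 0.11 in B6 (limma adjusted p 0.0168).

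For Grb7, F1 was 0.41 log2 units above C3H (limma adjusted p 0.0153), C3H was 0.32 below B6 (limma adjusted p 0.0340), and F1 minus B6 was 0.08 with a 95% interval of -0.15 to 0.31. Across the 15 genes, C3H differed from B6 in vehicle for 4 (2 higher, 2 lower), where 24.3% of all genes did, F1 from B6 for 0, where 12.6% did (4 intervals did not hold 0), and F1 from C3H for 2, both higher, where 14.3% did. The vehicle arrays of C3H and B6 lay on 1 slide each and those of F1 on 2, each holding vehicle arrays of 1 strain, so slide and strain cannot be told apart in these levels. With slide as a random block the limma adjusted p was 0.00911 for Ankrd22, 0.0176 for Grb7 and 0.0378 for LOC628856, but the correlation within slides was estimated at 0.00608 over all genes and the block cannot separate slide from strain here. A probe's level can also differ between strains where their sequences differ, which was not tested.

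**Figure D3:**
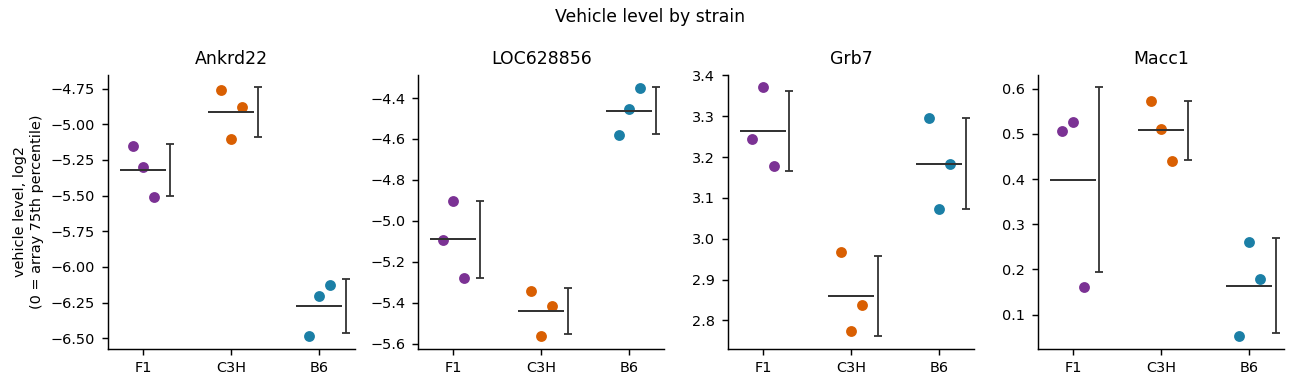
Vehicle level (log2, 0 is the array's 75th percentile) of Ankrd22, LOC628856, Grb7 and Macc1 in F1, C3H and B6, with 3 arrays as points, the mean as a line and the SD as a bar. The B6 points lie apart from the others for Ankrd22 and LOC628856, and the C3H points lie below the others for Grb7.

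The responses to E2 in each strain were themselves used by the rule, which kept genes that passed the same thresholds in every strain. Strain differences in response are therefore given as a description, and the counts called say nothing about whether the strains respond alike. At 2 h the F test called 0 of the 15 genes, where 1.97% of all genes were called, and 4 had an unadjusted p under 0.05. Grb7 fell by 1.78 in C3H and 1.30 in B6, a difference of -0.49 that was not called (unadjusted 95% interval -0.81 to -0.16, limma adjusted p 0.113). Pairwise, C3H minus B6, F1 minus B6 and F1 minus C3H each called 0, where 2.28%, 0.639% and 0.226% of all genes were called. Over the 8 genes well above background in all 9 groups, the C3H minus B6 difference at 2 h ran from -0.49 to 0.31, with 95% intervals reaching from -0.91 to 0.66.

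At 24 h the F test called 1 of the 15, Macc1 (limma adjusted p 0.0495), where 15.7% of all genes were called, and 2 had an unadjusted p under 0.05. Macc1 at 24 h was 1.74, 1.88 and 1.79 in F1, 1.61, 1.75 and 1.68 in C3H and 1.93, 1.78 and 1.97 in B6, and with vehicle 0.51, 0.53 and 0.16 in F1, 0.57, 0.51 and 0.44 in C3H and 0.05, 0.26 and 0.18 in B6. Its rise was 2.64-fold in F1, 2.25-fold in C3H and 3.32-fold in B6, and C3H minus B6 was -0.56 log2 units (95% interval -0.89 to -0.23). The F-test call was lost when any 1 of 21 of the 27 arrays was left out. Pairwise, F1 minus B6 and F1 minus C3H called 0 of the 15 at 24 h, where 1.98% and 3.76% of all genes were called, and C3H minus B6 called 1, where 18.7% were. Trpv6 rose by 4.17 in C3H and 3.43 in B6, a difference of 0.74 that was not called (unadjusted 95% interval 0.19 to 1.29, limma adjusted p 0.0567).

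Whole uterus holds several cell types, and fewer cells of a type cannot be told apart from less RNA per cell. Of 12 luminal epithelium markers, 11 were called higher at 24 h in each strain and 1 lower (Wnt7a), with median changes of 1.36 in F1, 1.34 in C3H and 1.23 in B6. Of all genes, 31.4%, 26.9% and 30.6% were higher and 37.1%, 40.4% and 37.4% lower. At 2 h, 3 markers were higher in each strain and 5, 6 and 6 lower, with medians of -0.24, -0.25 and -0.25. Of all genes, 22.8%, 23.9% and 22.7% were higher at 2 h and 36.9%, 37% and 33.9% lower. The mean level of the list was 1.21 to 1.49 with vehicle, 1.28 to 1.60 at 2 h and 2.52 to 2.77 at 24 h in F1. In C3H it was 1.15 to 1.26, 1.04 to 1.36 and 2.28 to 2.46, and in B6 1.25 to 1.40, 1.27 to 1.54 and 2.63 to 2.64. The vehicle and 2 h ranges of the list overlapped in every strain. The part of epithelial content in the late rise was not tested.

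Among these markers, Esrp1, an epithelial splicing factor, changed by -0.51, -0.61 and -0.39 at 2 h and by 1.13, 1.29 and 1.08 at 24 h in F1, C3H and B6 (largest limma adjusted p 0.0093), and Cldn3, a tight-junction protein, by -0.88, -0.80 and -0.45 and then by 0.49, 0.59 and 0.48 (largest limma adjusted p 0.0055). Elf3, an epithelial transcription factor, was instead higher at both times, by 1.62, 1.52 and 1.49 and by 2.60, 2.66 and 2.76. Of 22 late secretory genes, 20 in F1, 20 in C3H and 18 in B6 were higher at 24 h, with medians of 3.15, 3.19 and 2.96, and 0 lower, where 31.4%, 26.9% and 30.6% of all genes were higher. At 2 h, 7 were higher in each strain, where 22.8%, 23.9% and 22.7% of all genes were, and 5, 3 and 6 lower, where 36.9%, 37% and 33.9% were. Aqp5, a water channel, was 5.41, 5.88 and 5.13 log2 units higher at 2 h and 2.52, 3.30 and 2.62 higher at 24 h in F1, C3H and B6. Gjb2, the gap-junction protein connexin 26, was 2.57, 2.50 and 2.57 higher and then 3.31, 3.33 and 3.80 higher. Car12, a carbonic anhydrase, was 1.06, 1.19 and 1.02 higher and then 3.20, 3.08 and 3.69 higher (largest limma adjusted p of these 3 genes 2.68e-05). Ltf (lactotransferrin, a classic late estrogen target) changed by -1.15, -0.75 and -1.02 and then by 3.34, 4.34 and 2.75 (largest limma adjusted p 0.018).

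**Figure D4:**
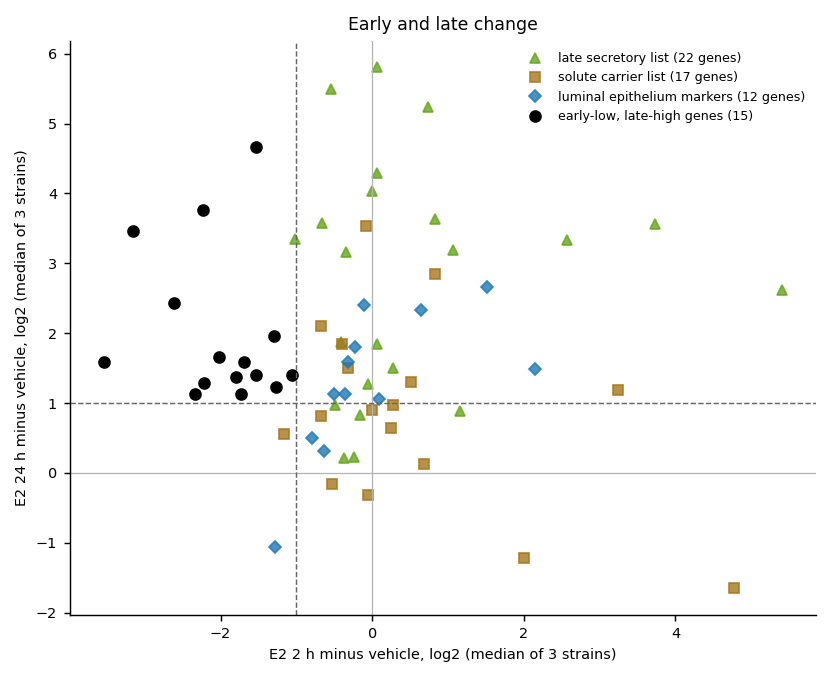
Change at 24 h against change at 2 h (log2, E2 minus vehicle, median of 3 strains) for the 15 genes, luminal epithelium markers, late secretory genes and epithelial solute carriers, with dashed lines at the thresholds. The 15 genes fill the upper left by the rule that chose them, and most luminal markers lie nearer to 0 at 2 h, with medians of -0.24 to -0.25.

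Over the 27 arrays, the deviations of the 15 genes from their group means had a mean pairwise correlation of 0.292 over 105 pairs, 85 of them above 0, against 0.0173 over all pairs of 22037 genes. The pairs share arrays, slides and scaling. The highest were Grb7 with LOC244911 (0.87), Grb7 with Fermt1 (0.76) and Ifne with Rnf186 (0.76), and the lowest Pramel13 with Ankrd22 (-0.63). One F1 vehicle array had all 15 genes below their group means, by 0.25 on average, and 1 F1 2 h array of the same slide had 12 of 15 below, by 0.27. The other F1 2 h arrays of that slide had 10 and 13 of 15 above, by 0.11 and 0.17 on average. On other slides, 1 B6 24 h array had 0 of 15 above (mean -0.11) and 1 C3H 2 h array had 14 above (mean 0.17). The correlation is a description and was not tested.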

How the data were processed

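Spot brightness in the deposited scanner files is linear intensity. Per the file headers, Feature Extraction 9.5.3.1 subtracted background and detrended each array, and put surrogates in place of low values, with no scaling between arrays. Agilent Feature Extraction 9.5 is the version in the submitters' processing notes. Probe coordinates are on mm7, per the file headers. The deposited value table held the processed intensity in 27 of 27 columns.

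Control spots (1639 of 45018) and spots with an outlier mark (48 to 117 per array) were left out, and saturated spots (0 to 8) kept. Spots were averaged over 41174 probes. Log2 processed signal minus the array's 75th percentile was used. A probe was kept if some group had it well above background on every array (32901 probes), and the brightest kept probe stood for its gene name (7412 of 22083 genes had several). Current symbols came from RefSeq by accession, symbol or synonym, and 12 of the 15 genes matched.

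One model of 9 group means was fitted with limma 3.58.1 (lmFit, eBayes, 18 residual degrees of freedom) in R 4.3.3 with data.table (1.17.8). The calling threshold was 0.05 after Benjamini-Hochberg adjustment over every gene tested, and the script was tested on simulated data. Reading and plotting used pandas 2.3.3, numpy 2.4.6 and matplotlib 3.10.9 in Python 3.11.15. All 15 genes are named, by the rule that up to 40 are. Promoters follow the order of the smallest 24 h minus 2 h difference over strains on the processed intensity. The members, gene lists and tests were chosen with earlier results of these data known. Alternatives covered background correction, normalization, the brightness filter, the probe of a gene, outlier spots, thresholds, array weights, slide, replicate number and leaving out each array.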

Additional observations from a re-analysis of the deposited data

Results flagged for a closer look

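The response of Macc1 at 24 h differed between strains by limma's F test (adjusted p 0.0495), with rises of 1.40 log2 units in F1, 1.17 in C3H and 1.73 in B6. The same responses chose the gene, so this p is a description. C3H minus B6 was -0.56 (95% interval -0.89 to -0.23). Part of this lay in vehicle, where C3H was 0.34 log2 units above B6 (limma pairwise adjusted p 0.0292, F test over strains 0.0641). The mean was 0.51 in C3H and 0.16 in B6 with vehicle, and 1.68 and 1.89 at 24 h. Over 39 settings the adjusted p of the 24 h F test ran from 0.0255 to 0.152, and it was under 0.05 in 13. No explanation was tested.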

How the results depend on the processing

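The number of genes meeting the rule, 15, was 11 to 21 under quantile normalization, median centring, no scaling, no filter, other choices of probe, kept outlier spots and slide as a fixed term, and 12 to 17 when 1 array was left out. It fell to 8 when every group had to be well above background and to 6 with normexp background correction, which was added after seeing the data because the planned fit on all spots failed on 6 arrays with a few spots of very bright local background. With a threshold of 0.8 it was 40, and with 1.5 it was 5. Each of the 45 changes at 2 h kept its sign, as did each of the 45 at 24 h, in the settings run, but 12 of the 15 genes met the rule under median centring and without scaling (lost: 5031425E22Rik, AK079795 and Macc1), 12 with quantile normalization (lost: 5031425E22Rik, AK079795 and Grb7), 13 with the mean of a gene's probes (lost: Arhgef38 and Fermt1) and 10 with slide as a fixed term (lost: Pramel13, 5031425E22Rik, AK079795, Macc1 and Grb7). The fixed slide term was fitted only for the B6 changes and the F1 change at 2 h, and the other changes kept their main values in that setting. Normexp kept Rnf186, Trpv6, LOC244911, Slc40a1, Fermt1 and Grb7. The filter on every group kept Trpv6, LOC244911, Arhgef38, Slc40a1, 5031425E22Rik, Fermt1, Macc1 and Grb7. Median centring moved the median change of all genes up by 0.09 to 0.24 log2 units over both times, and no scaling by 0.07 to 0.25. In F1, C3H and B6 the 2 h shifts were 0.15, 0.15 and 0.09 with median centring. Without scaling they were 0.25, 0.18 and 0.09. The luminal markers had 2 h medians of -0.24, -0.25 and -0.25, a size reached only by the unscaled shift in F1. The 2 h strain test called 0, and 1 with array weights (0 to 1 when 1 array was left out). The 24 h test called 1, and 0 under quantile normalization, no scaling, no filter, the mean of a gene's probes and slide as a random block (0 to 1 when 1 array was left out). The vehicle test called 3, 5 under median centring, 8 with array weights, and 1 of the 8 genes bright in every group. It called 1 without C3H vehicle 2 or 3 and 5 without F1 2 h 2, F1 2 h 3 or F1 vehicle 3, so 1 to 5 over all arrays left out. Replicate numbers did not pair the samples (2 of 18 correlations over 0.1, range -0.12 to 0.17), and with the replicate block 15 genes met the rule, and the vehicle, 2 h and 24 h tests called 4, 0 and 1. Causes of these shifts were not tested. Changes of AK079795, Rtl3 and 5031425E22Rik moved by over 1.5 times with slide as a fixed term, and those of AK079795 in F1 without F1 vehicle 3 (2 h -2.16, 24 h 0.55). Signal over background limits the 2 h levels of 7 genes.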
